A study of Homo sapiens with 12 samples.

Results

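ZZZ3 knock-down was examined in SW872 cells expressing the YAP-TFE3 fusion, hereafter YT. SW872 is an established human liposarcoma cell line. The comparison rests on the libraries titled YAP-TFE3 shZZZ3 (YT shZZZ3, 2 libraries) and YAP-TFE3 shNon-targeting (YT shNT, 2 libraries), which make up 4 of the 12 RNA sequencing libraries in the series. Both groups stably carried the YAP-TFE3 fusion, delivered by retrovirus, together with a hairpin delivered by lentivirus, so they differed by label in the hairpin alone. The other libraries used for comparison were YT with a hairpin against YEATS2 (YT shYEATS2, 2 libraries) and SW872 cells with the TAZ-CAMTA1 fusion (TC) carrying shNT or shZZZ3 (2 libraries each). The lines were selected with G418 and puromycin. The labels name shZZZ3 without distinguishing hairpins, so loss of ZZZ3 and other effects of that hairpin cannot be told apart.

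ZZZ3 codes for a zinc finger protein of the ATAC (Ada-two-A-containing) complex, a histone acetyltransferase complex built around the GCN5 or PCAF enzyme. In that complex ZZZ3 reads the histone H3 tail and helps place the complex on chromatin, and YEATS2 reads acylated lysines. YAP-TFE3 joins the TEAD-binding part of the Hippo pathway effector YAP to TFE3, a transcription factor that in normal cells drives lysosomal and autophagy genes, and it defines a subset of epithelioid haemangioendothelioma, a vascular sarcoma. The question was which genes and pathways of YT cells changed with the ZZZ3 hairpin.

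The study's screen lists 5 hairpins against ZZZ3, and which of them the sequenced line carried is not given in the sources used here. Their 21-base target sequences are shown because by label the groups differ in the hairpin alone. Each matched the annotated ZZZ3 transcript 1 time.
Hairpin 1: tcaaagaacttggtcataaat
Hairpin 2: ttcccgatctactcgtgttac
Hairpin 3: cgcatcctgaagaaatctctt
Hairpin 4: gcatcagatgacgaaagtatt
Hairpin 5: gacgacagcaccctcttaata
On GRCh38 chromosome 1, minus strand, hairpin 1 targets the 3′ UTR in exon 15 of 15 (77565309 to 77565329). Hairpins 2 and 3 target coding sequence of exon 5 (77633326 to 77633346 and 77633234 to 77633254). Hairpin 4 spans the coding junction of exons 12 and 13 (77568452 to 77576073), and hairpin 5 lies in coding sequence of exon 12 (77576187 to 77576207).

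The YT shNT libraries held 18880502 and 17451893 counts in total, the YT shZZZ3 libraries held 29294805 and 22107599, and over all 12 libraries they ran from 17451893 to 29294805. The 2 YT shZZZ3 libraries stood apart from each other before any comparison. The chi-square of their counts was 86.2 per gene, against 11.1 for YT shNT, 9.82 for TC shZZZ3 and 16.5 for YT shYEATS2, while TC shNT also reached 95.7. Across 13258 genes, the difference between replicate 1 and replicate 2 of YT shZZZ3 correlated with gene GC content at r = 0.704, and with the same difference in TC shNT at r = 0.898 (descriptions across genes, which share libraries and base composition). In the lowest of 10 equal bins of GC content (median 36.8%), the median log2 ratio to YT shNT was -0.56 in replicate 1 and 0.10 in replicate 2. In the highest bin (median 63.7%) it was 0.43 and -0.14. The part of this trend in each gene's result was not tested gene by gene, and counts are therefore also given with the GC trend removed and with single libraries left out.

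**Figure D1:**
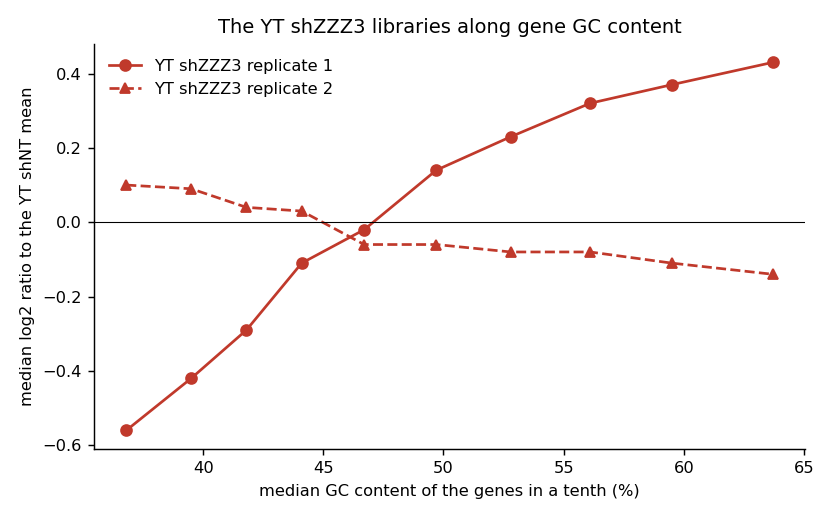
Median log2 ratio of each YT shZZZ3 library to the YT shNT mean (y axis) against the median GC content of genes in 10 bins (x axis, %), with circles for replicate 1 and triangles for replicate 2. Replicate 1 climbs from -0.56 to 0.43 across the bins, whereas replicate 2 runs from 0.10 to -0.14.

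The targeted gene was lower in both knock-down libraries than in YT shNT. ZZZ3 (ENSG00000036549, GRCh38 chromosome 1, 77562416 to 77683419, minus strand) was at 71.2 and 49.1 CPM (counts scaled for library size, with TMM factors) in the YT shNT replicates and at 12.6 and 29.6 CPM in the YT shZZZ3 replicates. The groups did not overlap, and the YT shZZZ3 libraries differed from each other by more than the YT shNT libraries did on a ratio scale. The fall was 2.85-fold (log2 fold change -1.51, SE 0.425, edgeR quasi-likelihood adjusted p 0.0453). This call was narrow. Over its 16 alternatives the log2 fold change ran from -2.25 to -0.97 and 10 kept the call. The adjusted p in edgeR was 0.225 without YT shZZZ3 replicate 1 (log2 fold change -0.97), 0.296 without YT shNT replicate 1 and 0.117 without YT shNT replicate 2, and 0.0139 without YT shZZZ3 replicate 2 (-2.25). The GC content of ZZZ3 was 37.6%, and with the GC trend removed the log2 fold change was -1.39 (edgeR adjusted p 0.00094). ZZZ3 was at 31.4 and 30.7 CPM in YT shYEATS2, which by label lacked its hairpin. Compared directly in edgeR, no ATAC subunit, ZZZ3 included, was called lower in YT shZZZ3 than in YT shYEATS2.

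None of the other 10 ATAC subunits was called. Of the 11 subunits, ZZZ3 alone passed, against 10% of all 18415 genes tested. The acetyltransferases KAT2A (GCN5) and KAT2B (PCAF) were at log2 fold changes of 0.18 (edgeR adjusted p 0.682) and -0.57 (0.232). YEATS2 was at 115 and 117 CPM in YT shNT and at 138 and 134 CPM in YT shZZZ3 (0.23, edgeR adjusted p 0.456). The remaining subunits lay between -0.36 for DR1 and 0.51 for TADA2A. TFE3 itself, whose count includes reads from the fusion, was at 223 and 239 CPM in YT shNT and at 207 and 144 CPM in YT shZZZ3 (-0.40, edgeR adjusted p 0.325), a gene looked up after its values were seen to check the fusion.

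Of 18415 genes tested, 1846 (10%) were called at an adjusted p under 0.05 in edgeR, 811 (4.4%) higher and 1035 (5.62%) lower in YT shZZZ3. The median log2 fold change over all genes was 0.01. A change of at least 2-fold was seen in 635 of the genes called higher and 793 of those called lower. Leaving out a library moved these counts to 486 higher and 533 lower when YT shZZZ3 replicate 1 was dropped, 798 and 747 when its replicate 2 was, 181 and 338 without YT shNT replicate 1, and 181 and 333 without YT shNT replicate 2. With the GC trend removed, 1713 and 2077 genes were called. In all 1846 called genes the 2 groups did not overlap. Their sign could therefore hardly change when 1 library was left out, and its holding there carries no test. No gene called in the comparison changed sign in any of the 16 alternatives, and 318 genes (112 higher, 206 lower) were called in all of them.

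The YT shNT libraries were the unusual ones for most of these genes. In 747 of the 1035 genes called lower (72.2%), both YT shNT libraries lay above all other 10 libraries of the series, TC libraries included, against 11.6% of all genes tested. In 534 of the 811 genes called higher (65.8%), both lay below all other libraries, against 9.95%. The YT shZZZ3 libraries were instead the outermost ones in 164 genes called lower (15.8%) and 101 called higher (12.5%), against 2.14% and 1.29% of all genes. A gene chosen for a difference between YT shZZZ3 and YT shNT is more likely to have either group outermost, so these shares carry no test. YT shNT is the only YT group without a hairpin against an ATAC subunit, so a property of those 2 libraries and a property of YT cells without a knock-down cannot be told apart.

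The largest falls were in genes of unlike function. KLHDC7B, a kelch-domain gene, was at 10.2 and 14.4 CPM in YT shNT and at 0.182 and 0 CPM in YT shZZZ3 (log2 fold change -6.07, edgeR adjusted p 1.48e-04). The nuclear receptor NR1H4 (FXR, the bile acid receptor) fell from 51.3 and 46.9 CPM to 1.89 and 3.05 CPM (-4.27, edgeR adjusted p 0.001), and HNF4A, a nuclear receptor of liver and gut, fell from 4.07 and 5.29 CPM to 0.146 and 0.0423 CPM (-4.68, 0.00137). In both receptors the highest YT shZZZ3 library was far below the lowest YT shNT library. INHBE, an inhibin beta subunit made in stressed liver, fell from 75.8 and 93.9 CPM to 4.73 and 1.65 CPM (-4.68, edgeR adjusted p 0.00204). The other large falls were in LCN2 (lipocalin 2, an iron-siderophore carrier, -4.76), the chemerin receptor CMKLR2 (-4.63), the axonemal dynein DNAH10 (-4.10), the myosin MYH15 (-4.80), the collagen receptor OSCAR and FIBIN. OSCAR held 136 counts in YT shNT and 3 in YT shZZZ3, a ratio of 63.8 (95% exact counting interval 21.4 to 313). FIBIN held 97 counts and 1, a ratio of 137 (23.9 to 5450). Intervals on counts here cover counting error only.

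The largest rises started from levels near 0 in YT shNT. DGKK, a diacylglycerol kinase gene on chromosome X, was at 0.0528 and 0 CPM in YT shNT, which is 1 count in the group, and at 6.33 and 5.41 CPM in YT shZZZ3, which is 302 counts. The ratio was 215 (95% exact counting interval 38.2 to 8500). SMOC2, a calcium-binding protein of the matrix, was at 0.0528 and 0.345 CPM and then at 8.04 and 6.77 CPM (log2 fold change 4.73, edgeR adjusted p 0.00137). KRT5, a basal keratin, had no count in YT shNT and 114 counts in YT shZZZ3, at least 27-fold higher with a floor of 3 counts over the group. The gap junction gene GJA4 rose from 0.317 and 0.230 CPM to 9.39 and 6.85 CPM (4.50, edgeR adjusted p 0.00174). The remaining genes were OLFM4 (a secreted glycoprotein of gut crypts, 4.43), the prion-like PRND (4.37), the potassium channel KCNA1 (4.36), the calcium channel subunit CACNA2D3 (4.24), the surface glycoprotein CD24 (4.19) and the immune GTPase GIMAP4 (4.11). GIMAP4 lost its call in edgeR without either YT shNT library, and the other 19 of these 20 genes kept theirs in every alternative that tested them.

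**Figure D2:**
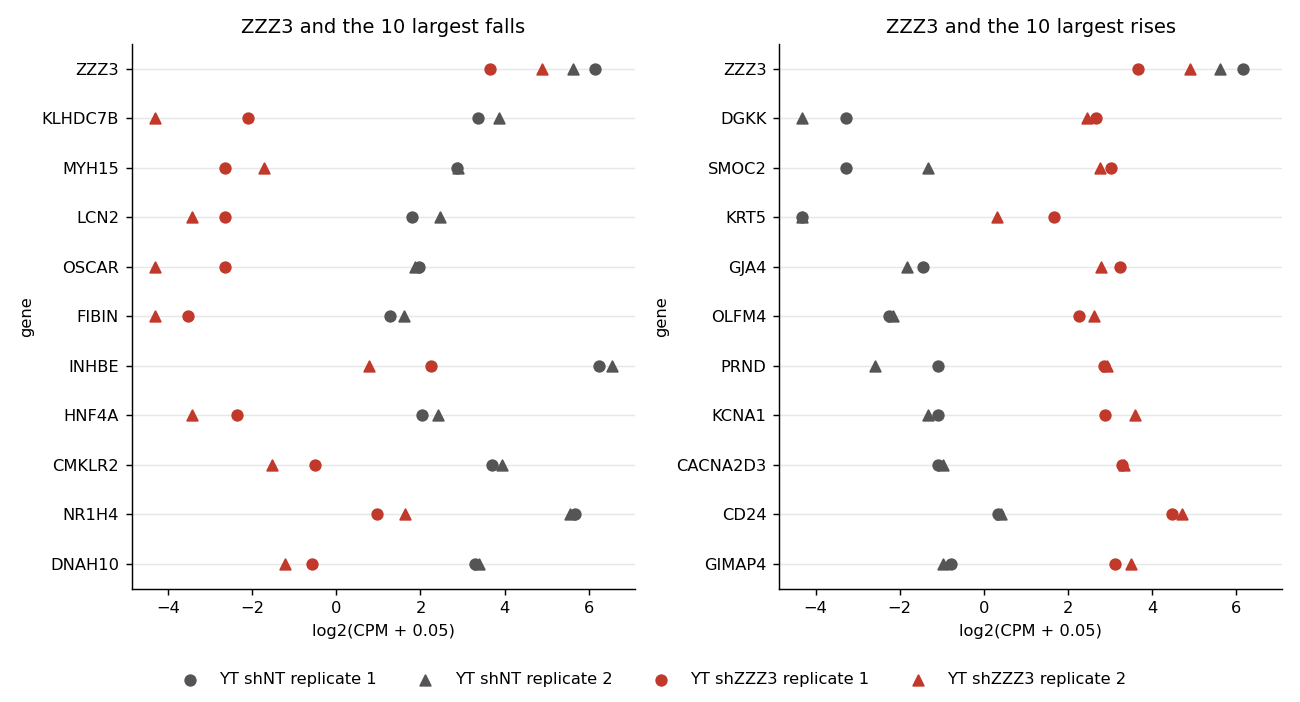
Expression of ZZZ3 and of the 10 genes with the largest falls (left) and rises (right), as log2(CPM + 0.05), with grey for YT shNT, red for YT shZZZ3, circles for replicate 1 and triangles for replicate 2. Red and grey points do not overlap for any gene, which was a condition for choosing the falls and rises. They lie closest for ZZZ3, at 49.1 CPM in the lower YT shNT library and 29.6 CPM in the higher YT shZZZ3 library.

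The integrated stress response was the gene group with the largest share of called members. This pathway slows translation through phosphorylation of eIF2 and raises the transcription factor ATF4, which with partners such as CEBPG and DDIT3 drives genes for amino acid uptake, serine and glycine synthesis, transfer RNA charging and secreted stress hormones. Of 36 listed genes, 31 were called lower and 0 higher, where 5.62% of all genes tested were called lower. The median log2 fold change was -1.72, against 0.01 for all genes. The list's counts were 29 and 24 when YT shZZZ3 replicate 1 or 2 was left out, 21 and 22 without each YT shNT library, and 33 with the GC trend removed, always with 0 higher.

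Secreted hormones were among its larger falls. STC2 (stanniocalcin 2) was at 366 and 416 CPM in YT shNT and at 52.6 and 49.7 CPM in YT shZZZ3 (log2 fold change -2.93, SE 0.381, edgeR adjusted p 0.00109). ADM2, a peptide of the adrenomedullin family, was at 70.0 and 74.1 CPM and then at 8.62 and 3.64 CPM (-3.53, edgeR adjusted p 0.00104). Both genes were several-fold lower in each knock-down library. FGF21 held 55 counts in YT shNT and 1 in YT shZZZ3, a ratio of 77.4 (95% exact counting interval 13.3 to 3110).

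Further members were CTH, SLC7A11 and ATF3. CTH, which makes cysteine from cystathionine, was at 54.2 and 63.6 CPM in YT shNT and at 10.6 and 7.49 CPM in YT shZZZ3 (log2 fold change -2.69, edgeR adjusted p 4.14e-04). SLC7A11, the cystine importer, was at 144 and 71.8 CPM and then at 11.9 and 15.7 CPM (-2.96, edgeR adjusted p 0.0159). The 2 YT shNT libraries differed from each other for SLC7A11 and its call was lost without YT shZZZ3 replicate 1 or without YT shNT replicate 1. The transcription factor ATF3 was at 25.8 and 26.7 CPM and then at 7.17 and 6.34 CPM (-1.94, edgeR adjusted p 8.31e-04). In 33 of the 36 genes (91.7%) both YT shNT libraries lay above all other 10 libraries of the series. This held for 11.6% of all genes tested and 72.2% of all genes called lower.

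**Figure D3:**
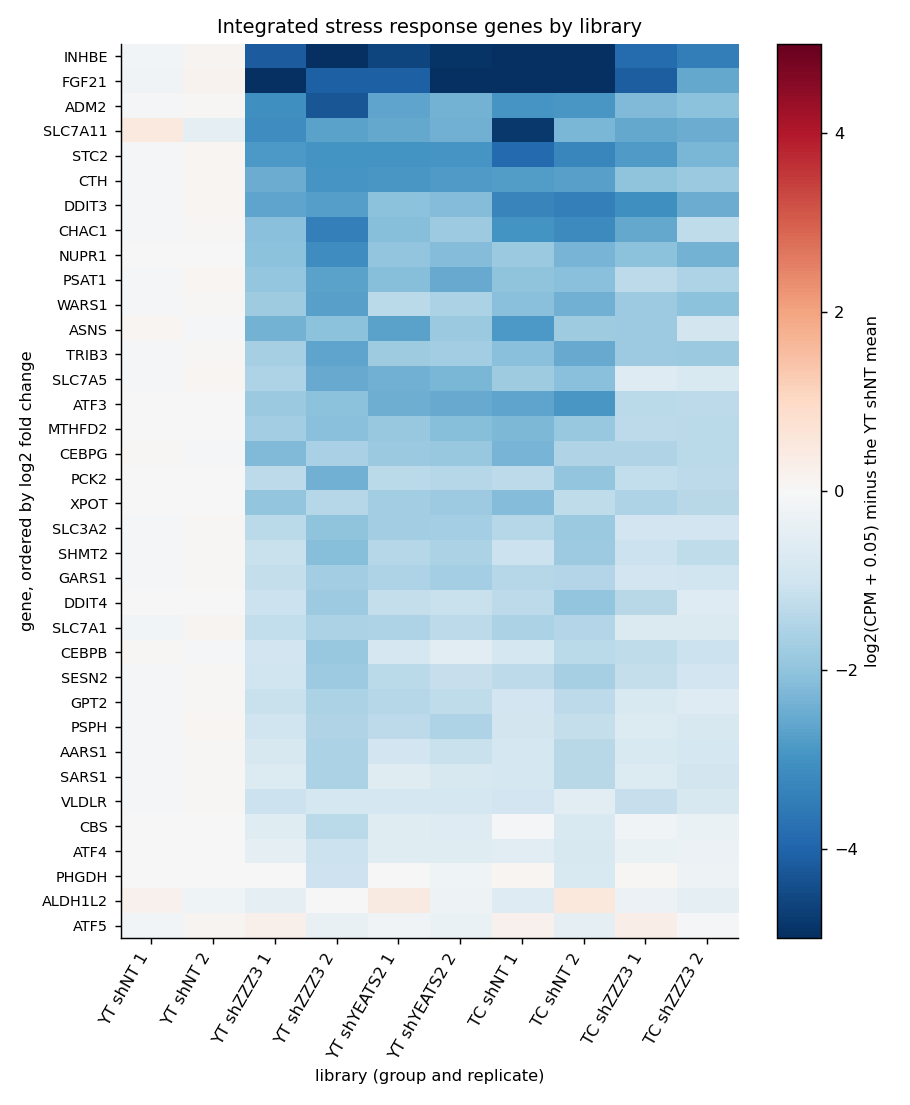
Levels of the 36 integrated stress response genes (rows, ordered by log2 fold change) in 10 libraries (columns), as log2(CPM + 0.05) minus the YT shNT mean, with blue for lower values. The YT shNT columns stand out from all others, and YT shZZZ3, YT shYEATS2, TC shNT and TC shZZZ3 are lower in most rows.

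The promoters of these genes are shown where they hold the core of the element bound by ATF4 with a C/EBP partner, because the members moved together. RefSeq promoter windows on GRCh38.p14 (250 bases before to 50 after the start) were found by symbol for 29 of the 36 genes. TGATGNAA, searched on both strands, was in 7 of these 29 (24.1%), in 28 of 711 promoters of genes called lower (3.94%), in 226 of 12656 promoters of genes tested (1.79%) and in 1003 of all 27305 promoters (3.67%). The match is a description and says nothing of binding in these cells. In 5 members called lower with a match wholly before the start, the matched letters are in capitals, in 60-base windows on the strand of the gene.
FGF21, chr19:48755444-48755503, plus strand: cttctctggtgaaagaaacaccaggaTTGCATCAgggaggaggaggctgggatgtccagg
CHAC1, chr15:40953236-40953295, plus strand: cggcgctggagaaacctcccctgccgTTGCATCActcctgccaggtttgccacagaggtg
ASNS, chr7:97872443-97872502, minus strand: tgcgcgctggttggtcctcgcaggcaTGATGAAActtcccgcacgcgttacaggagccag
ATF3, chr1:212565190-212565249, plus strand: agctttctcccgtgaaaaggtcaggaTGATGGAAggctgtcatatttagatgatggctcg
AARS1, chr16:70289660-70289719, minus strand: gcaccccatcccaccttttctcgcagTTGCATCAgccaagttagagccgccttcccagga
FGF21, CHAC1 and AARS1 hold the element as its reverse complement. The 5 genes code, in the order shown, for a hormone, a glutathione-degrading enzyme, asparagine synthetase, a transcription factor and alanyl transfer RNA synthetase.

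Genes of the unfolded protein response, which restores folding capacity in the endoplasmic reticulum, fell in part. Of 16 listed genes, 6 were called lower and 1 higher, with a median log2 fold change of -0.51. Over all genes tested, 5.62% were called lower and 4.4% higher. HSPA5 (BiP), the main chaperone of that compartment, was at 1910 and 2305 CPM in YT shNT and at 968 and 980 CPM in YT shZZZ3 (-1.11, edgeR adjusted p 0.00397). DNAJB9 was at 83.1 and 80.3 CPM and then at 19.4 and 29.4 CPM (-1.74, edgeR adjusted p 0.0022). Its call held in all 16 alternatives, while HSPA5 was lost without YT shNT replicate 2 and DNAJC3 (-1.17) without YT shZZZ3 replicate 1 or either YT shNT library. Without YT shNT replicate 2 the list had 1 member called lower, without YT shNT replicate 1 it had 3, and without YT shZZZ3 replicate 1 or 2 it had 4 and 5.

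Targets of TFE3 in nutrient sensing and autophagy bear on the TFE3 part of the fusion. Of 17 tested genes, 5 were called lower and 0 higher, with a median log2 fold change of -0.70. That median was -0.4 without YT shZZZ3 replicate 1 and -0.88 without replicate 2. In 8 of the 17 (47.1%) both YT shNT libraries lay above all other libraries of the series, against 11.6% of all genes tested. Over all genes tested, 5.62% were called lower and 4.4% higher. GPNMB, a lysosomal membrane glycoprotein and a standard readout of TFE3 activity, was at 410 and 446 CPM in YT shNT and at 127 and 136 CPM in YT shZZZ3 (-1.71, SE 0.189, edgeR adjusted p 5.31e-04). RRAGD, a Rag GTPase of amino acid signalling, fell from 67.6 and 72.2 CPM to 25.5 and 26.5 CPM (-1.42, edgeR adjusted p 0.00141), and the autophagy gene GABARAPL1 fell from 109.6 and 105 CPM to 51.7 and 50.8 CPM (-1.07, 0.00228). These 3 genes kept their calls in all 16 alternatives, and their replicates were close to each other in both groups. Of 28 lysosomal genes, 3 were called lower and 1 higher, at a median of -0.23, against the same shares of all genes. In that list LAMP2 (-0.87), the protease CTSL (-0.79) and the galactosidase GLA (0.81) each lost the call in 4 or 5 alternatives, in each case without YT shZZZ3 replicate 1 and without either YT shNT library.

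Many cell cycle genes were called higher and none lower. Of 26 mitosis genes, 17 were called higher and 0 lower, with all 26 above 0 and a median log2 fold change of 1.42, where 4.4% of all genes were called higher. AURKB, a kinase of the chromosomal passenger complex, was at 10.9 and 8.4 CPM in YT shNT and at 65.6 and 46.5 CPM in YT shZZZ3 (2.53, SE 0.344, edgeR adjusted p 0.00138). The mitotic kinesin KIF20A was at 36.4 and 28.8 CPM and then at 179 and 141 CPM (2.29, edgeR adjusted p 5.55e-04). CCNB1, the mitotic cyclin, was at 70.7 and 62.7 CPM and then at 279 and 214 CPM (1.89, 5.70e-04). Each of these genes was higher in both YT shZZZ3 libraries by more than the spread within either group. CDC20 (2.14), CENPE (1.95) and BIRC5 (1.88) rose as well, although CDC20 lost its call without YT shNT replicate 2 and CENPE without YT shZZZ3 replicate 2 or either YT shNT library.

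DNA replication genes moved alike. Of 28, 18 were called higher and 0 lower, at a median of 1.15, where 4.4% of all genes were called higher. RRM2, a subunit of ribonucleotide reductase, was at 6.55 and 10.1 CPM in YT shNT and at 50.7 and 45.0 CPM in YT shZZZ3 (2.52, edgeR adjusted p 0.00624, lost without YT shNT replicate 1). Thymidylate synthase TYMS was at 22.7 and 28 CPM and then at 111 and 89.9 CPM (1.98, 5.31e-04), cyclin CCNA2 at 11 and 10.1 CPM and then at 42.6 and 47.8 CPM (2.09, 0.00109), and UHRF1 at 11.2 and 14.1 CPM and then at 45.9 and 48.7 CPM (1.89, 0.00161). The licensing factor CDT1 (1.99) lost its call without YT shZZZ3 replicate 1 and without either YT shNT library, and MCM10 (1.69) without either YT shNT library. The list counts were sensitive to single controls, with 11 and 6 mitosis genes and 3 and 8 replication genes called without YT shNT replicates 1 and 2. Without YT shZZZ3 replicates 1 and 2 they were 18 and 13, and 12 and 15. With the GC trend removed they were 25 and 24. The CDK inhibitors CDKN2C (1.03) and CDKN2D (0.98) were the only called members of 12 inhibitors and D cyclins, and both lost the call without YT shZZZ3 replicate 1 or either YT shNT library. In 20 of the 28 replication genes (71.4%) and 12 of the 26 mitosis genes (46.2%) both YT shNT libraries lay below all other 10 libraries. This held for 9.95% of all genes tested and 65.8% of all genes called higher.

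The promoters of the mitosis genes held the cell cycle homology region letters TTTGAA, searched on both strands, in 17 of 22 windows found (77.3%), against 9.84% of the promoters of genes tested and 15.4% of all promoters. Among the mitosis genes called higher it was in 9 of 14 (64.3%), so the share was not larger in the called members, and among all genes called higher it was in 18.1%. CCAAT, also on both strands, was in 17 of 22 (77.3%), against 36.1% of genes tested, 35.7% of all promoters and 44% of genes called higher. In 2 members called higher, TTTGAA lay wholly before the start with room for a 60-base window, shown on the strand of the gene with the match in capitals.
CDC20, chr1:43358889-43358948, plus strand: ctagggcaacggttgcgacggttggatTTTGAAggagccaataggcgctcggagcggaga
TOP2A, chr17:40418015-40418074, minus strand: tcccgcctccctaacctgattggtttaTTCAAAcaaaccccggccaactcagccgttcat
TOP2A holds the reverse complement, and both windows also contain the CCAAT letters or their reverse complement close to the match. Among the replication genes TTTGAA was in 1 of 25 windows and CCAAT in 16 of 25 (64%).

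Targets of YAP and TAZ bear on the TEAD-binding part of the fusion and were split. Of 24 listed genes, 8 were called lower and 2 higher, at a median of -0.07. Over all genes tested, 5.62% were called lower and 4.4% higher. LATS2, the Hippo kinase and a feedback target, was at 46.5 and 48.3 CPM in YT shNT and at 19.2 and 20.9 CPM in YT shZZZ3 (-1.24, SE 0.194, edgeR adjusted p 0.00257). AMOTL2 (-1.26), CCN2 (-0.91) and AJUBA (-0.78) were called lower, and each lost its call without YT shZZZ3 replicate 2 and without either YT shNT library, CCN2 also without YT shZZZ3 replicate 1. ANKRD1, a further standard target, moved the other way, from 1.0 and 0.690 CPM to 5.24 and 8.12 CPM (2.85, edgeR adjusted p 8.25e-04). CCN1 was at 66.3 and 80.4 CPM and then at 87.6 and 75.5 CPM, with overlapping groups (0.15, edgeR adjusted p 0.768). Without YT shZZZ3 replicates 1 and 2 the members called lower were 5 and 3, and without either YT shNT library 1. Of 11 TEAD factors and cofactors, VGLL2 was the only one called, with 2 counts in YT shNT and 70 in YT shZZZ3, a ratio of 24.9 (95% exact counting interval 6.63 to 209), and its call was lost without YT shNT replicate 2. TEAD1 missed the threshold (-0.92, edgeR adjusted p 0.0553).

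**Figure D4:**
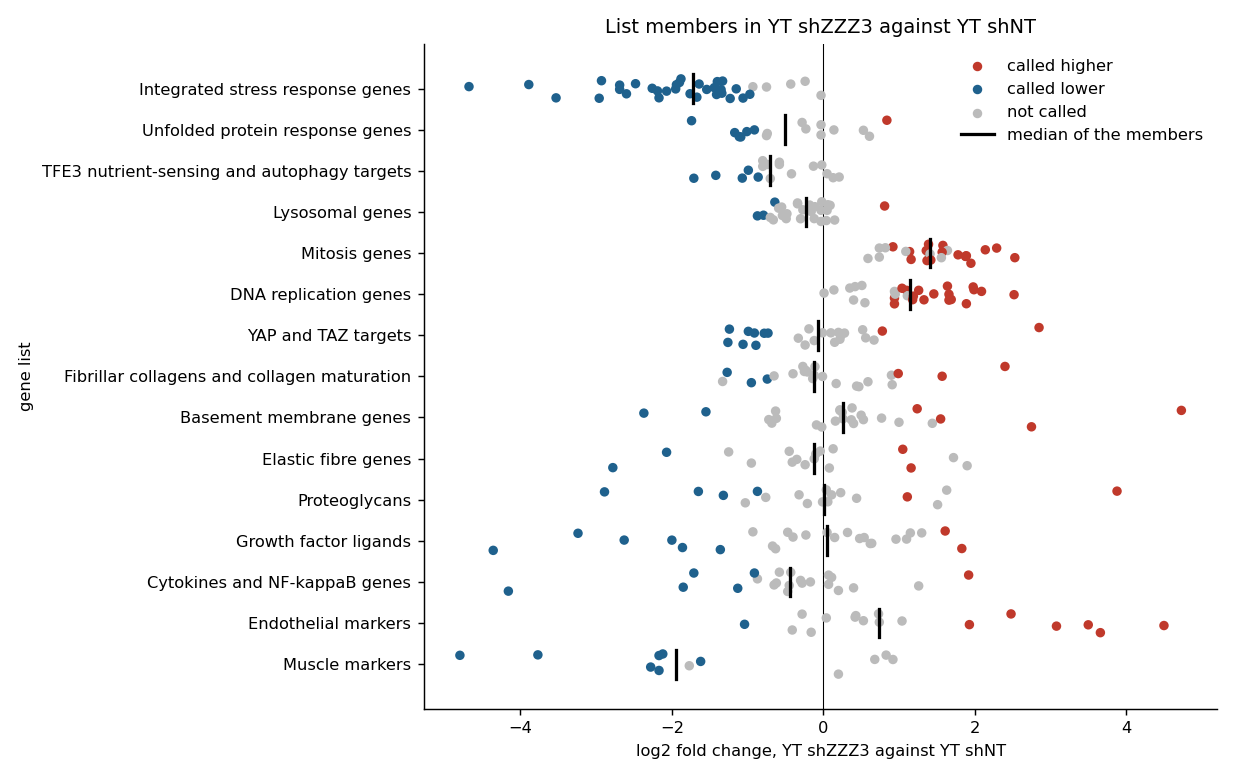
Log2 fold change of YT shZZZ3 against YT shNT (x axis) for the members of 15 gene lists (y axis), with red for genes called higher, blue for genes called lower, grey for genes not called and a black bar at each list's median. Integrated stress response genes sit to the left (median -1.72), mitosis (1.42) and DNA replication genes (1.15) to the right, and matrix lists spread to both sides of 0.

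Matrix genes were called in both directions in most classes, and most members were not called. The counts are to be read against 4.4% of all genes called higher and 5.62% called lower. Counts with a library left out are given in the order YT shZZZ3 replicate 1, YT shZZZ3 replicate 2, YT shNT replicate 1, YT shNT replicate 2. Among 25 basement membrane genes, 4 were called higher and 2 lower. LAMA1, a laminin chain, fell (-2.37, edgeR adjusted p 5.80e-04), while the matricellular pair SMOC1 and SMOC2 rose, SMOC1 from 2.75 and 2.93 CPM to 22.3 and 16.8 CPM (2.75, 5.74e-04). Among 17 elastic fibre genes 2 rose and 2 fell. MFAP4, a microfibril-associated protein, fell from 124 and 156 CPM to 24.5 and 16.0 CPM (-2.78, edgeR adjusted p 2.84e-04) and FBLN5 fell by 2.07 on the log2 scale, whereas LTBP2 rose (1.16, lost without either YT shNT library, adjusted p 0.0561 to 0.0699 in edgeR). With a library left out, the basement membrane list had 4, 2, 2 and 2 genes higher and 2, 3, 2 and 2 lower, and the elastic fibre list had 1, 2, 0 and 0 higher and 2 lower each time.

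VCAN, which codes for versican, a large chondroitin sulphate proteoglycan, was at 34.7 and 23 CPM in YT shNT and at 320 and 534 CPM in YT shZZZ3 (3.88, SE 0.470, edgeR adjusted p 8.11e-04). The other proteoglycans called among 18 were 1 further rise and 4 falls, with GPC4 at -1.65 and BCAN at -2.89, the latter lost without any 1 of the 4 libraries. The glycoprotein tenascin C (TNC) was at 470.5 and 519 CPM and then at 1726 and 2274 CPM (2.01, edgeR adjusted p 0.00177). Osteopontin (SPP1) was at 418 and 446 CPM and then at 64.9 and 68.8 CPM (-2.69, 2.63e-04). FRAS1 (1.76) lost its call without YT shZZZ3 replicate 2 or either YT shNT library. In all, 3 of 20 matricellular genes were called higher and 2 lower. With a library left out, 4, 2, 2 and 2 of these were higher and 2, 2, 2 and 1 lower, and the proteoglycans gave 1, 2, 1 and 1 higher and 1 lower each time.

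Fibrillar collagens and their maturation enzymes gave 3 genes higher and 3 lower of 23. The lower calls did not hold, with 0, 2, 0 and 0 left when a library was dropped in the order above, against 2 higher each time. COL5A3 rose from 5.07 and 5.35 CPM to 27.3 and 28.6 CPM (2.40, edgeR adjusted p 0.0015) and COL1A1 rose by 1.57 on the log2 scale, whereas the cross-linking enzyme LOX fell (-1.27, lost without YT shZZZ3 replicate 1 or either YT shNT library). Of 24 matrix proteases and inhibitors, 2 were higher and 3 lower. PLAT, tissue plasminogen activator, fell from 812 and 910.3 CPM to 254 and 232 CPM (-1.83, edgeR adjusted p 0.00187). The metalloprotease ADAMTS12 rose from 101 and 98.7 CPM to 277 and 311 CPM (1.56, edgeR adjusted p 0.00138). Of 18 integrins, 3 alpha chains were called higher. ITGA8 (1.70) kept its call in all alternatives, and ITGA9 (1.40) and ITGA10 (1.07) lost theirs without any 1 of the 4 libraries. The integrin list thus had 1 member higher without any 1 of them. VTN, vitronectin, was not called (-0.33, edgeR adjusted p 0.729).

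Signalling lists are read against the same shares, 4.4% of all genes higher and 5.62% lower. Some lists share members, so their counts are not separate results. GDF15 is a growth factor ligand and a p53 target, and VEGFA a ligand and a hypoxia gene. INHBE is in the stress response and TGF-beta lists, and ATF3 in the stress response and AP-1 lists. Among 25 growth factor ligands, 6 were called lower and 2 higher, and in the order above 5, 5, 4 and 3 were lower with a library dropped. VEGFA, the endothelial growth factor, was at 247 and 278 CPM in YT shNT and at 59.6 and 72.0 CPM in YT shZZZ3 (-2.0, SE 0.243, edgeR adjusted p 8.25e-04). GDF15, a stress cytokine, was at 21.2 and 17.5 CPM and then at 2.40 and 1.52 CPM (-3.24, 0.00136). FGF19 held 63 counts in YT shNT and 0 in YT shZZZ3, at least 29.6-fold lower with a floor of 3 counts over the group. Among 25 receptor tyrosine kinases 4 were lower and 1 higher, with 2, 4, 2 and 1 lower and 0 higher when a library was dropped, among them DDR2 (-1.42, lost without YT shZZZ3 replicate 1 or YT shNT replicate 1) and PDGFRA (1.36, lost without any 1 of the 4 libraries). ERK feedback genes gave 4 lower of 20 (1, 1, 0 and 0 with a library dropped), of which FOS, SPRED1 and DUSP5 lay between -0.91 and -0.86 and lost their calls in 5 to 10 alternatives.

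Cytokine and NF-kappaB genes gave 5 lower and 1 higher of 22, and 2, 3, 3 and 2 lower with a library dropped in the same order. IL6 fell from 2.11 and 3.05 CPM to 0.509 and 0.804 CPM (-1.85, edgeR adjusted p 0.00985, lost without YT shZZZ3 replicate 1 or YT shNT replicate 2). IL1RL1 held 54 counts in YT shNT and 0 in YT shZZZ3, at least 25.3-fold lower with the same floor. TGF-beta and BMP pathway genes gave 6 lower and 3 higher of 28, and with a library dropped 3, 4, 2 and 3 lower and 2, 3, 1 and 2 higher, among them FST, the activin antagonist follistatin, from 3.22 and 2.82 CPM to 17.8 and 18.7 CPM (2.56, edgeR adjusted p 0.00119). Wnt genes gave 3 higher and 1 lower of 28 (0, 3, 0 and 0 higher with a library dropped), with the receptors FZD8 (2.16) and FZD2 (1.13) higher and FZD7 (-0.90) lower, all 3 lost without either YT shNT library and the first 2 also without YT shZZZ3 replicate 1. Notch genes gave 1 higher and 3 lower of 16 (3, 2, 1 and 1 lower with a library dropped), where the ligand JAG1 rose from 44.2 and 49.7 CPM to 113 and 131 CPM (1.38, edgeR adjusted p 8.25e-04) and the ligands DLL3 (-1.42) and JAG2 (-1.33) fell, DLL3 losing its call without YT shNT replicate 1 and JAG2 without YT shZZZ3 replicate 2 or either YT shNT library.

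Small numbers of genes were called in the remaining pathways, against the same 4.4% higher and 5.62% lower of all genes. Glucose transporter SLC2A3 fell from 191 and 239 CPM to 47.7 and 56.7 CPM (-2.04, edgeR adjusted p 2.29e-04) and hexokinase HK2 fell (-1.24, lost without YT shNT replicate 2), in a list of 25 hypoxia and glycolysis genes with 4 lower and 0 higher. Of 17 p53 targets 4 were lower, GDF15 from the ligand list among them. ZMAT3 was at -1.73 (edgeR adjusted p 0.00363) and the death receptor FAS at -1.37 (lost in 7 alternatives). Of 14 AP-1 and small MAF factors, JUN rose from 17.9 and 16.4 CPM to 68.1 and 49.99 CPM (1.78, edgeR adjusted p 0.00126), and MAFF (-1.95) was among 3 that fell. MAFK was not called (-0.47, edgeR adjusted p 0.243). Interferon-stimulated genes gave 4 lower of 24, with IFI27 at -2.50, and with a library dropped in the order above 2, 2, 0 and 1 were lower, so this count did not hold. Cholesterol synthesis genes gave 2 higher of 22 with 21 of 22 above 0, respiratory chain genes gave 1 higher of 30, and homeobox factors of the HOX and sine oculis families gave 3 higher and 3 lower of 28. Without either YT shNT library, 0 cholesterol, respiratory chain or homeobox genes were called higher and 1 homeobox gene was called lower.

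Markers of cell types moved in the same comparison. Counts in this and the following marker lists are to be read against 4.4% of all genes called higher and 5.62% lower. In bulk RNA, a change in the number of cells of a kind and a change in RNA per cell cannot be told apart. Of 17 endothelial markers 6 were called higher and 1 lower. The median was 0.73, with 13 members above 0 and 4 below, the lowest at -1.04. Their summed level was 283 to 285 CPM in YT shNT and 434 to 476 CPM in YT shZZZ3. SOX17, an endothelial transcription factor, rose from 1.0 and 0.460 CPM to 10.8 and 7.66 CPM (3.50, edgeR adjusted p 0.00141). CLDN5 had no count in YT shNT and 54 in YT shZZZ3, at least 12.8-fold higher with the same floor, and its call was lost without YT shZZZ3 replicate 1 or either YT shNT library. The counts of endothelial markers called higher were 4 and 6 without YT shZZZ3 replicates 1 and 2 and 3 without either YT shNT library.

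Muscle markers moved the other way. Of 12 tested of 22 listed, 7 were called lower and 0 higher, at a median of -1.94, with 4 members above 0. With the GC trend removed, 7 were called lower and 2 higher. The members tested depended on the filter on mean counts. With no filter on low counts, 19 were tested, 8 called lower and 2 higher, and the median was -0.39. The summed level of the list was 278 to 307 CPM in YT shNT and 125 to 139 CPM in YT shZZZ3. The sarcomeric myosin MYH13 fell from 32.7 and 30.5 CPM to 2.18 and 2.28 CPM (-3.77, edgeR adjusted p 0.0015), and MYH1 from 10.3 and 9.89 CPM to 1.86 and 2.16 CPM (-2.28, 0.00431). Myosin heavy chain genes are near copies of each other, so the split of reads among them is uncertain. The myogenic regulators MYF5 and MYF6 had no count in either group. A further regulator, MYOG, had no count in YT shNT but was counted in YT shZZZ3. MYH7, TNNI1 and TNNT2 were counted in YT shNT and had no count in YT shZZZ3. The members called lower were 4 and 5 without YT shZZZ3 replicates 1 and 2 and 3 without either YT shNT library.

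The markers of the labelled cells were present only in part. Of 10 mesenchymal markers 3 were called higher, led by vimentin (VIM), at 709 and 696 CPM in YT shNT and at 2152 and 1470 CPM in YT shZZZ3 (1.37, edgeR adjusted p 0.00416), while THY1 (1.48) and LGALS1 (1.41) lost their calls without YT shZZZ3 replicate 1 or either YT shNT library. The adipocyte markers ADIPOQ, CIDEA and LEP had no count in either group. Of 7 adipocyte markers tested, 2 were called lower and 0 higher, at a median of -0.55. PLIN4 fell (-2.80, edgeR adjusted p 0.00109), and CEBPA lost its call without YT shZZZ3 replicate 2 or either YT shNT library. The list summed to 250 to 256 CPM in YT shNT and 147 to 179 CPM in YT shZZZ3. The 7 blood cell markers summed to 1.96 to 2.38 CPM in YT shNT and 2.28 to 4.04 CPM in YT shZZZ3, with none of 4 tested called. Of 10 epithelial markers tested, KRT5 was higher and the splicing factor ESRP1 lower (-2.43, edgeR adjusted p 4.00e-04). Of 8 neural markers, SYP was called higher (2.35, edgeR adjusted p 0.00265).

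The shZZZ3 line of TC cells gave 281 called genes (1.53%) in edgeR. Whether it carried the hairpin used in YT is not given in the sources used here. ZZZ3 itself was not called there, at 25.6 and 60.4 CPM in TC shNT and at 21.9 and 22.7 CPM in TC shZZZ3 (log2 fold change -0.94, SE 0.421, edgeR adjusted p 0.45), so the smaller number of calls stands beside a target whose fall did not pass the test. The interaction for ZZZ3 was -0.57 (edgeR adjusted p 0.718). The difference between the lines was tested as an interaction, which called 795 genes (4.32%). The interaction was called for 25 of the 36 integrated stress response genes, all with the lower value in YT, and the list's median interaction was -2.25 on the log2 scale against 0.04 for all genes. In TC the median change of that list was 0.44, with 1 gene called higher (ATF3, 1.42, edgeR adjusted p 0.0146) and 0 lower. For ATF3 the interaction was -3.36 (SE 0.342, edgeR adjusted p 5.90e-04). The median of the mitosis genes was 1.42 in YT and 0.48 in TC, with 0 of 26 called in TC and the interaction called for 2 of 26, so a difference between the lines was not shown for the other 24. Endothelial markers had the interaction called for 5 of 17, all higher in YT. The genes KRT5, KCNA1, SMOC1, COL5A3, JUN, SPP1 and PLAT were called in the same direction in both lines, with interaction adjusted p values in edgeR between 0.304 and 0.866.

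**Figure D5:**
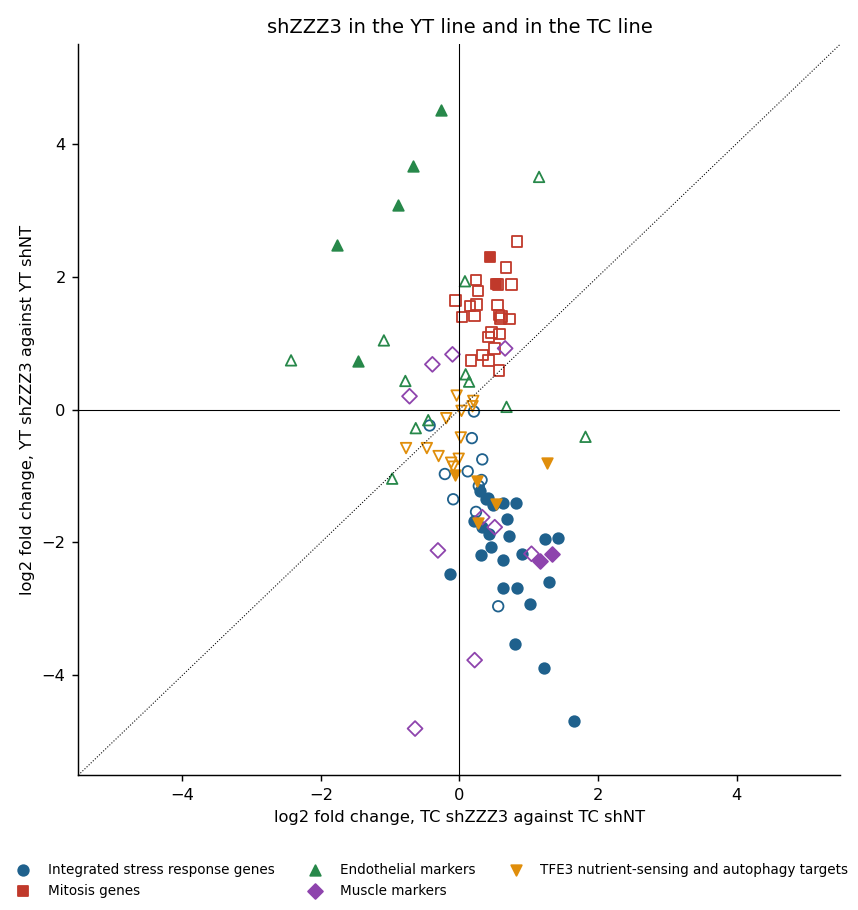
Log2 fold change with shZZZ3 in YT (y axis) against that in TC (x axis) for 5 gene lists, with filled symbols where the interaction was called and a dotted line at equal change. Stress response genes lie below 0 in YT (median -1.72) and mostly above 0 in TC (median 0.44), and mitosis genes lie above 0 in YT and closer to 0 in TC.

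YEATS2 knock-down in YT gave 3821 called genes (20.7%) in edgeR against the same YT shNT libraries, so the 2 comparisons share their controls and are only set side by side. The integrated stress response list had a median of -1.67 with shYEATS2 and -1.72 with shZZZ3, and 29 and 31 members called lower. Compared directly, YT shZZZ3 and YT shYEATS2 differed in 1327 genes (7.21%), among them 0 of the 36 stress response genes (median difference -0.07). The direct comparison called 9 of 26 mitosis genes and 6 of 17 endothelial markers, all higher in YT shZZZ3, and 6 of 12 muscle markers, also higher in YT shZZZ3. LAMA1 and GPC4 were higher in YT shZZZ3 than in YT shYEATS2 by 4.02 and 3.62 on the log2 scale (edgeR adjusted p 5.27e-05 for each). DGKK, SMOC2, OLFM4 and PRND were higher in YT shZZZ3 than in YT shYEATS2 by 5.37 to 6.4 on the log2 scale, with edgeR adjusted p values from 1.00e-04 to 0.00149.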

How the data were processed

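RNA of stable SW872 lines was sequenced as stranded poly(A) libraries, 2 per group and described as biological duplicates. The authors aligned reads with HISAT2 to hg38 in the bcbio-nextgen pipeline and deposited raw counts per gene. Which step of that pipeline gave the deposited counts is not given in the sources used here. A gene was kept if its counts averaged 5 or more across the 12 libraries (18415 genes). A quasi-likelihood model of edgeR 4.0.16 (R 4.3.3, TMM factors, robust, prior count 2) was fitted to all 6 groups, which share 1 estimate of spread (6 residual degrees of freedom), and p-values were adjusted by Benjamini-Hochberg over all genes, with calls at 0.05. CPM are TMM-scaled. DESeq2 1.42.0, other factors and filters, GC offsets, a replicate block and single libraries left out were alternatives. Scripts were tested on simulated data. P-values measure the spread between these libraries.

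The genes named are ZZZ3 and the ATAC subunits, the 10 largest protein-coding falls and rises with at least 2 CPM in the higher group, at most 6 called members of each list with the largest changes, and matrix and YAP or TAZ target genes that the study names. The last are not independent of these samples. The falls and rises were taken among called genes whose 2 groups did not overlap. Some genes that this rule takes are not reported here. Members and lists were chosen with earlier results of these data known. The depth was 17451893 to 29294805 counts per library, and intervals cover counting error only. Gene names and positions came from GENCODE 44, promoters from RefSeq GRCh38.p14.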

Additional observations from a re-analysis of the deposited data

Results flagged for a closer look

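For 65 of the 133 genes named by rule, the change with shZZZ3 differed between the YT and TC lines by the interaction term in edgeR (adjusted p under 0.05). Values are the log2 fold change in YT minus that in TC. Differences below -3 were in LCN2 (-6.56), INHBE (-6.33), KLHDC7B (-6.33), CMKLR2 (-6.18), OSCAR (-5.65), LAMA1 (-5.20), GDF15 (-5.19), FGF21 (-5.11), FGF19 (-4.92), ADM2 (-4.33), NR1H4 (-4.17), STC2 (-3.95), CTH (-3.52), DNAH10 (-3.45), MYH1 (-3.44), ATF3 (-3.36), MAFF (-3.18) and FBLN5 (-3.15). Differences from -3 to -1.9 were in GPC4 (-2.97), ESRP1 (-2.76), IL6 (-2.55), SLC2A3 (-2.48), VEGFA (-2.37), AMOTL2 (-2.21), LOX (-2.09), GPNMB (-1.97) and RRAGD (-1.95). Smaller negative differences were in LATS2 (-1.83), MFAP4 (-1.82), CCN2 (-1.74), HK2 (-1.70), DDR2 (-1.67), DNAJB9 (-1.52), AJUBA (-1.45), GABARAPL1 (-1.33), MAFK (-1.33), HSPA5 (-1.32), FZD7 (-1.10) and CTSL (-0.91). Positive differences under 2 were in TYMS (1.26), VIM (1.30), CCNB1 (1.36), ITGA8 (1.38), JAG1 (1.47), LTBP2 (1.51), CCNA2 (1.52), ADAMTS12 (1.73), KIF20A (1.85) and ITGA9 (1.92), and larger ones in COL1A1 (2.11), TNC (2.22), CACNA2D3 (2.22), PDGFRA (2.32), SIX2 (2.60), HOXC12 (2.68), CD24 (2.85), ANKRD1 (3.10), SYP (3.34), VCAN (3.34), SMOC2 (3.81), GIMAP4 (4.18), CLDN5 (4.33), PRND (4.38), GJA4 (4.76) and DGKK (5.90). For 4 of these genes, namely LAMA1, GPC4, ATF3 and MAFF, the change was called in both lines with opposite signs. The TC shNT libraries that enter every value differed from each other along gene GC content, as the YT shZZZ3 libraries did, and the part of this in the interaction was not tested gene by gene. The YT shNT libraries enter every value too. They lay above all other libraries in 72.2% of genes called lower in YT shZZZ3, and below them in 65.8% of genes called higher. The part of this control level in the interaction was not tested.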

How the results depend on the processing

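Genes higher in YT shZZZ3 numbered 811 in the comparison as reported, 1382 with no filter on low counts, 1713 with the GC trend removed, 1424 with the GC trend removed and without YT shZZZ3 replicate 2, 1258 in a fit leaving out TC shNT, and 181 to 798 when single libraries were left out. Genes lower numbered 1035, 2077 with the GC trend removed, 1657 with it removed and without YT shZZZ3 replicate 2, and 333 to 747 when single libraries were left out. Interaction calls numbered 795, 1549 with no filter, 1945 with the GC trend removed, 1274 by DESeq2 and 204 to 1012 when single libraries were left out. TC shZZZ3 calls numbered 281, and 532 by DESeq2. ZZZ3 lost its call with library totals (-1.47), with a mean of at least 50 counts (-1.51) and with the contrast fitted alone (-1.51), and its log2 fold change ran from -2.25 to -0.97 when single libraries were left out. The 118 other named genes that were called kept their sign in all alternatives. Their groups did not overlap, so this was largely fixed for single libraries left out. Of them, 67 were called in every alternative that tested them.

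Subunits not called changed sign. KAT2A was at -0.05 to 0.42 over single libraries left out and at -0.42 with the GC trend removed and without YT shZZZ3 replicate 2. MBIP ran from -0.17 to 0.42 with -0.00 without YT shNT replicate 2, SGF29 from -0.51 to 0.17, TADA3 from -0.24 to 0.42 and WDR5 from -0.07 to 0.31. With the GC trend removed TADA3 was at -0.04 and WDR5 at -0.01, and without YT shZZZ3 replicate 1 as well they were at -0.20 and -0.03. The cause was not tested.

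With the replicate number as a block, 1018 genes were higher and 1265 lower. The numbers were not taken to pair the samples, since the replicate differences of YT shNT and YT shZZZ3 correlated at -0.367. A crossed pairing, chosen after seeing the data, gave 1191 and 1456. The fits combining GC removal with a library left out, and the fit leaving out TC shNT, were also chosen after seeing the data.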

Other observations

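Calls were unevenly spread over chromosomes. On chromosome 8, 66 of 637 genes tested were called lower (10.4%) and 15 higher (2.35%), with a median log2 fold change of -0.24, which was -0.21 with the GC trend removed and -0.37 to -0.15 when single libraries were left out. The chromosome 8 median was 0.01 in TC shZZZ3 and -0.56 in YT shYEATS2, the latter against the same YT shNT libraries. Over all genes tested 5.62% were called lower and 4.4% higher. Chromosome 13 had a similar share, with 31 of 317 genes lower (9.78%) and a median of -0.21. Its median was -0.12 with the GC trend removed and -0.41 to -0.06 when single libraries were left out. On chromosome 18, 8.96% were lower and 6.34% higher, and on chromosome 21, 8.82% and 1.96%. The share called higher was 7.74% on chromosome 4, 6.83% on chromosome 5, 6.53% on chromosome X and 6.49% on chromosome 17, where the median was 0.20. These chromosomes were chosen after their values were seen.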
